A study of Sus scrofa with 10 samples.

Results

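PGA5, CLEC3B, AKAP11, SYNE1 and PEA15 are 5 genes that set juvenile Rapacz familial hypercholesterolemic (RFH) swine apart from juvenile wild-type (WT) swine in aortic valve leaflets. They were chosen because a probe set of each differed between those juvenile groups, so that difference is described here and not tested. All probe sets whose array annotation gives exactly 1 symbol, that of one of these genes, were taken. That gave 6 of 23999 tested probe sets, or 5 of 6765 genes with such a probe set. PEA15 has 2 probe sets and the other 4 genes have 1 each. No probe set with several symbols named any of the 5 genes.

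Leaflet RNA of female swine was read on the Affymetrix Porcine Genome array, where a group of short probes, called a probe set, measures a transcript. The 3 groups were juvenile WT (3 arrays, Rapacz Wisconsin Miniature Swine, labelled RFH -/-, 3 months old), juvenile RFH (3 arrays, 3 months old) and adult RFH (4 arrays, 2 years old). RFH swine have inherited high blood cholesterol, and every animal was kept on standard chow. Breed label and genotype differ together between WT and RFH, and the labels give no hybridisation date. Breed, genotype and any batch that follows the groups therefore cannot be told apart. Adult WT leaflets were not analysed here, so age and longer exposure to high cholesterol cannot be told apart between adult and juvenile RFH. Nothing in the labels ties every array to an animal of its own, so p-values measure the spread between these samples.

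Pepsinogen A, the product of PGA5, is the inactive precursor of the stomach protease pepsin. Tetranectin, encoded by CLEC3B, is a secreted C-type lectin domain protein that binds plasminogen, and plasmin formed from plasminogen degrades fibrin and extracellular matrix. AKAP11 is an A-kinase anchoring protein, which holds protein kinase A at particular places in the cell. SYNE1 encodes a nesprin, a very large protein of the outer nuclear membrane that ties the nucleus to the cytoskeleton through the LINC complex. PEA15 is a small adaptor with a death effector domain that keeps ERK kinases in the cytoplasm and binds FADD and CASP8 of the death receptor pathway. The aortic valve leaflet is built mainly by interstitial fibroblasts covered by endothelium, and it is not a tissue in which pepsinogen is known to act.

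All values are log2 expression as deposited, so a difference of 1 is a 2-fold change. Each group is given as its mean ± SD across the arrays. Array medians lay between 6.96 and 7.03. Levels of different probe sets are not compared with each other as transcript amounts, since probes differ in how well they bind. Where a level is placed among all probe sets, the percentile describes brightness only.

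The 8 measured interstitial markers averaged between 11.69 and 12.61 over the arrays, from vimentin (VIM), the brightest, at 14.33 or more in every group to the collagen gene COL3A1 at 6.66 to 7.34. Among 10 endothelial markers the list mean ran from 8.23 to 9.61, and the receptor gene KDR, the dimmest of them, lay between 3.86 and 3.95. One library stood apart: juvenile RFH replicate 2 had a mean of 8.62 over 14 cardiac muscle markers, against 5.21 to 5.74 in the other 9 arrays. The juvenile difference of each member probe set, and of the other genes named for one, is therefore also given without it. Poly-A control probe sets had a mean of 6.54 ± 0.06 in WT and 6.32 ± 0.02 in juvenile RFH arrays (SD, n = 3 each), and of 7.12 ± 0.16 in the adults (SD, n = 4). Adult arrays thus stood 0.80 above the juvenile RFH arrays, with a two-sided exact permutation p of 0.0286, which 4 and 3 arrays cannot go below. The juvenile groups were -0.22 apart, RFH minus WT, with an exact permutation p of 0.1, the floor for 3 and 3 arrays. The 3' minus 5' signal of 3 housekeeping control pairs, which grows as RNA breaks down, was 0.16 higher in juvenile RFH than in WT (exact permutation p = 0.2). It was -0.02 for adult minus juvenile RFH (exact permutation p = 0.943). The part of these controls in the results below was not tested.

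**Figure D1:**
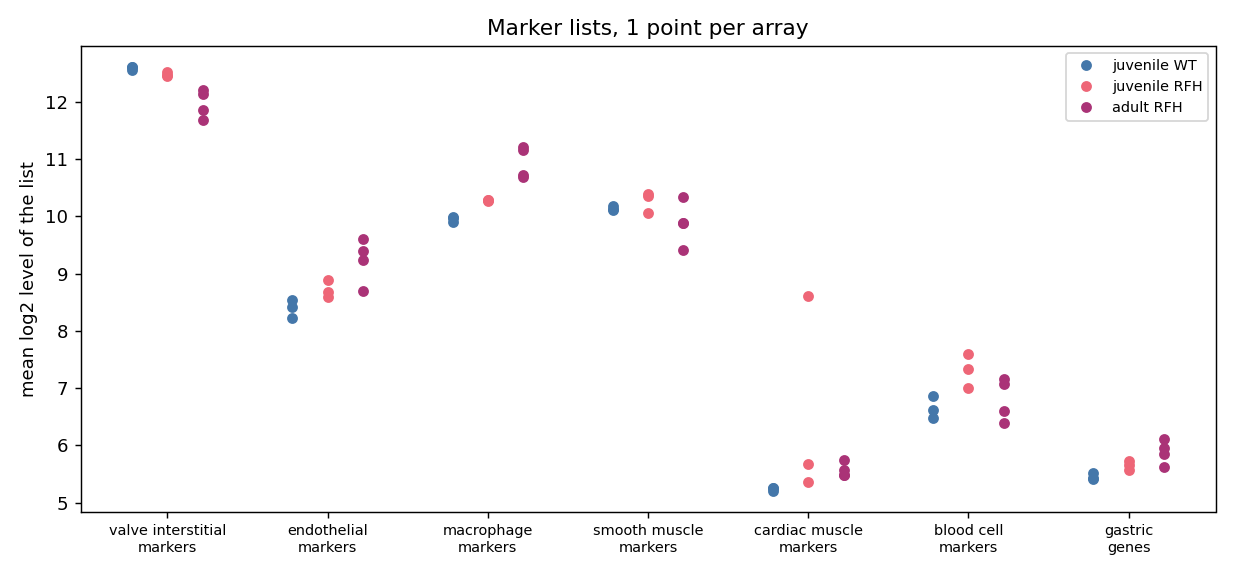
Mean log2 level of 7 gene lists (y axis) in each array, with 1 point per array and colours for juvenile WT, juvenile RFH and adult RFH. Interstitial markers are the brightest list in all arrays, and 1 juvenile RFH array lies at 8.62 for cardiac muscle markers.

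The first comparison, juvenile RFH against juvenile WT, asks what differs in young leaflets of hypercholesterolemic animals. PGA5 and CLEC3B were higher in juvenile RFH leaflets, by 4.25-fold and 2.23-fold. AKAP11, SYNE1 and 1 of the PEA15 probe sets were lower, by 2.42-fold, 2.37-fold and 2.09-fold. The other PEA15 probe set lay at nearly the same level in both groups. Over all 23999 probe sets 28 passed an adjusted p under 0.05 in this comparison (0.117%, limma, Benjamini-Hochberg adjusted), 12 upwards (0.05%) and 16 downwards (0.0667%). The count of 28 ran from 2 without juvenile RFH replicate 3 to 71 without adult RFH replicate 2, and 3047 probe sets (12.7%) had an unadjusted p under 0.05. The 5 member probe sets that differ are among the 28 because the genes were picked from such differences, and the count is no evidence about them. The groups did not overlap in those 5 probe sets, nor in 28.7% of all probe sets.

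PGA5 (Ssc.219.1.S1_at) read 5.61, 5.77 and 5.75 in the juvenile WT arrays. It read 7.54, 8.13 and 7.71 in the juvenile RFH arrays. The lowest RFH array thus lay 1.77 above the highest WT array. The difference of means was 2.09 ± 0.23 (limma SE), and 1.92 without the array that carried cardiac muscle transcripts, which was the highest of the 3 for PGA5. In WT leaflets PGA5 stood at the 31.6th percentile of all probe sets, a level at which background can hold much of the signal, and in juvenile RFH at the 60.8th. By size the difference ranked 15th of 23999 probe sets and 6th of the 10069 with 1 symbol.

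CLEC3B (Ssc.5704.1.S1_at) is a bright probe set in every group, at the 83.0th percentile in WT and the 92.6th in juvenile RFH. It read 9.35, 9.51 and 9.59 in juvenile WT arrays. It read 10.67, 10.60 and 10.65 in juvenile RFH arrays, which agree within an SD of 0.03. The gap between the nearest arrays of the groups was 1.02, and the difference of means 1.16 ± 0.18 (SE), or 1.17 without juvenile RFH replicate 2.

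AKAP11 (Ssc.2505.1.A1_at) is dim, at the 29.7th percentile in WT and the 14.5th in juvenile RFH. It read 5.45, 5.57 and 5.70 in juvenile WT and 4.21, 4.36 and 4.32 in juvenile RFH arrays. Every RFH array was lower than every WT array, by at least 1.09. The difference was -1.28 ± 0.16 (SE), and -1.31 without juvenile RFH replicate 2.

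SYNE1 (Ssc.17400.1.S1_at) is dim as well, at the 23.8th percentile in WT and the 10.8th in juvenile RFH. It read 5.29, 5.06 and 5.004 in juvenile WT arrays and 3.65, 3.75 and 4.23 in juvenile RFH arrays. The groups were 0.78 apart at their nearest arrays. The difference was -1.24 ± 0.19 (SE). SYNE1 is used in heart and skeletal muscle. The array with the high cardiac muscle markers had a SYNE1 value of 3.75, between the other RFH arrays. Without that array the difference was -1.18. Any part of muscle transcripts in the SYNE1 values was not tested.

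PEA15 is the only one of the 5 genes with more than 1 named probe set, and its probe sets disagreed. The first, Ssc.9884.1.A1_at, read 9.35, 9.30 and 8.98 in juvenile WT and 8.05, 8.28 and 8.09 in juvenile RFH arrays, a difference of -1.07 ± 0.15 (SE) with a gap of 0.70 between the groups. The second, Ssc.8090.1.A1_at, read 11.91, 11.89 and 11.82 in juvenile WT and 11.70, 11.83 and 11.89 in juvenile RFH arrays. Here the groups overlapped and the difference was -0.07 ± 0.09 (SE). The probe set without a difference is the brighter one, at the 97.6th percentile of mean level over the 10 arrays against the 73.5th. Without juvenile RFH replicate 2 the differences were -1.14 and -0.08.

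**Figure D2:**
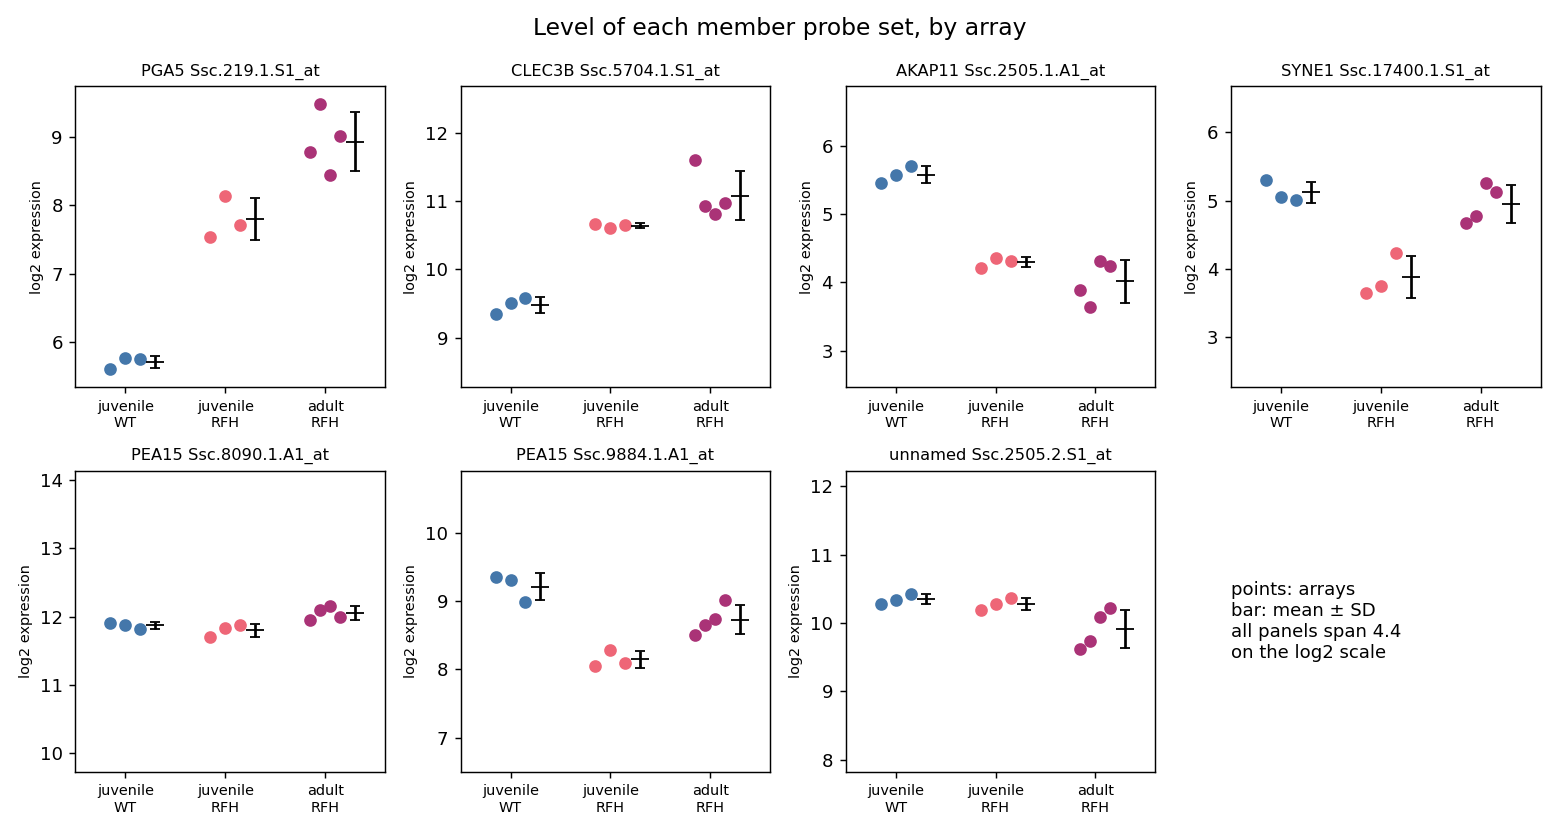
Log2 expression (y axis) of the 6 member probe sets and of the unnamed Ssc.2505.2.S1_at in each array of the 3 groups, with the mean and SD of each group as a bar. All panels span the same width on the log2 scale around their own centre, so distances within panels can be compared: PGA5 climbs from 5.71 to 7.79 to 8.93 between group means, SYNE1 dips to 3.88 in juvenile RFH, and the brighter PEA15 probe set stays between 11.70 and 12.16.

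The spread between probe sets of PEA15 was set beside that of other genes. Of 2261 genes with several 1-symbol probe sets, the highest and lowest juvenile differences of a gene were a median of 0.18 apart. In PEA15 they were 1.00 apart (1.06 without juvenile RFH replicate 2), a spread reached or passed in 30 genes (1.33%), PEA15 included. Of the 1543 genes with exactly 2 probe sets, 11 had such a spread. A gene picked for 1 differing probe set is bound to rank high on this measure, so the rank describes PEA15 and tests nothing. In the comparison of adult with juvenile RFH arrays the PEA15 probe sets were 0.33 apart, a spread that was not set beside that of other genes.

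**Figure D3:**
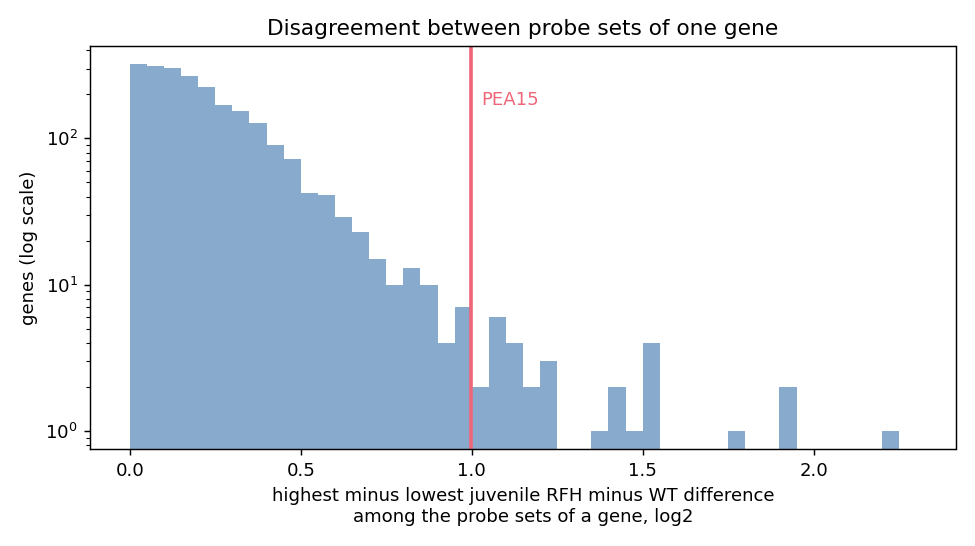
Number of genes (y axis, log scale) by the distance between the highest and the lowest juvenile RFH minus WT difference among the probe sets of a gene (x axis, log2), for 2261 genes. The line marks PEA15 at 1.00, in the thin right-hand tail.

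For AKAP11 the array holds 1 further reading that bears on the same question, though the annotation does not name it. The unnamed probe set Ssc.2505.2.S1_at carries the same cluster number in its identifier as the AKAP11 probe set, and it was looked up after the values were seen. It read 10.28, 10.34 and 10.43 in juvenile WT and 10.19, 10.28 and 10.37 in juvenile RFH arrays, at the 89.4th percentile of mean level. The groups overlapped and the difference was -0.07 ± 0.15 (SE), with or without juvenile RFH replicate 2. In adult RFH arrays it read 9.62, 9.74, 10.08 and 10.22. A shared cluster number is the maker's grouping of source sequences and does not show that both probe sets read the same transcript. PGA5, CLEC3B and SYNE1 had no other probe set of their cluster number. The PEA15 probe sets carry different cluster numbers, so an unnamed probe set of another number could still read one of these genes. Such probe sets were not searched for. Probe sequences and the sequences of the breeds were not used here, and whether a sequence difference lies under any of these probe sets was not tested.

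The members spanned the range of brightness. Of the 6 member probe sets, AKAP11 and SYNE1 fall in the dimmest of 5 equal classes of mean level, PGA5 in the middle class, the dimmer PEA15 probe set in the next, and CLEC3B and the brighter PEA15 probe set in the brightest. Differences of at least 1 between juvenile RFH and WT were seen in 0.458% of the dimmest class and in 1.04%, 1%, 0.771% and 0.583% of the classes above it. Over all probe sets that share was 0.771%, or 185 probe sets.

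**Figure D4:**
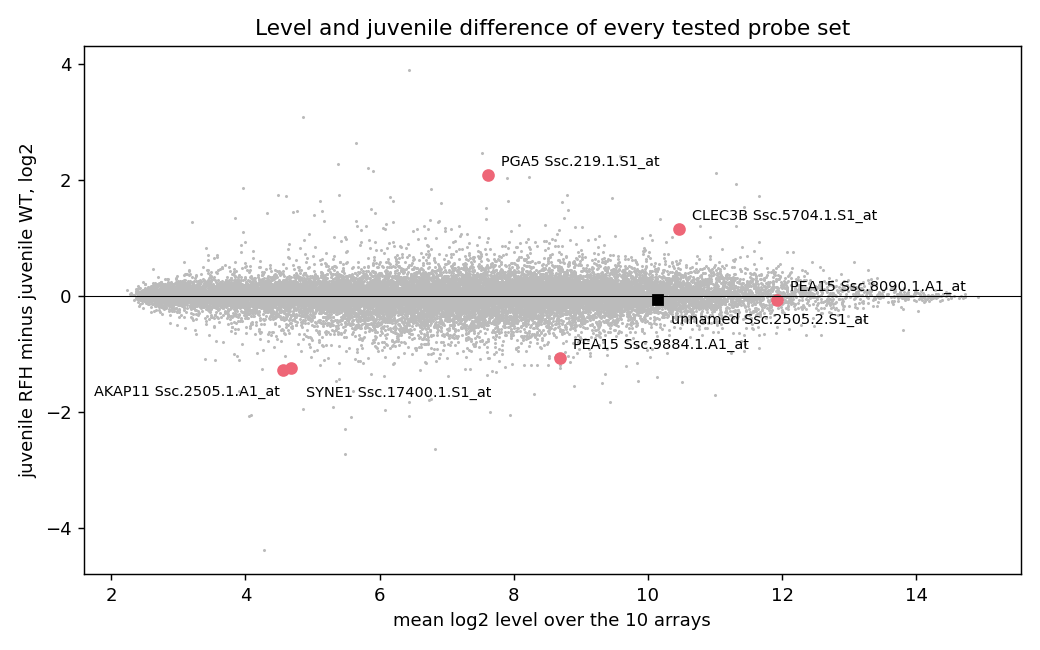
Mean log2 level over the 10 arrays (x axis) against the juvenile RFH minus juvenile WT difference (y axis, log2) of each of the 23999 tested probe sets, with member probe sets as large points and the unnamed Ssc.2505.2.S1_at as a square. PGA5 lies at 2.09 and CLEC3B at 1.16 above the line, AKAP11 and SYNE1 lie together at the dim end at -1.28 and -1.24, and the brighter PEA15 probe set and the square lie near 0.

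The second comparison, adult against juvenile RFH, shows how the genes stood in older hypercholesterolemic leaflets. The juvenile RFH arrays are shared with the first comparison, on which the genes were chosen, and the adult arrays entered the same fit through its estimate of the spread. A probe set chosen for a low or high juvenile RFH reading is apt to read closer to WT in other arrays, so the tests below are not independent of the choice. PGA5, SYNE1 and the dimmer PEA15 probe set rose from juvenile to adult RFH, and none of the 6 member probe sets fell. CLEC3B, AKAP11 and the brighter PEA15 probe set did not pass the test. The count of 3 of 6 stands beside 16.8% of all probe sets called in this comparison, 8.03% up and 8.74% down. Some cell type markers changed in the same comparison. Of the 8 interstitial markers 3 fell and none rose, and the list mean went from between 12.46 and 12.52 in juvenile RFH to between 11.69 and 12.20 in adult RFH arrays. Of 5 adipocyte markers the lipid carrier FABP4 and the lipase LPL rose, by 3.83 and 1.17 (limma, adjusted p = 0.00213 and 0.0354), while ADIPOQ, LEP and RETN changed by 0.12, -0.13 and -0.01 without passing. Of 10 endothelial markers 2 rose and 1 fell, where 11.4% of all genes rose and 7.85% fell. Their part in the members' changes was not tested, and in bulk tissue fewer cells of a type and less RNA per cell cannot be told apart.

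PGA5 read 8.78, 9.48, 8.45 and 9.01 in adult RFH arrays, all above the 3 juvenile RFH arrays. The mean rose from 7.79 ± 0.31 (SD, n = 3) to 8.93 ± 0.43 (SD, n = 4), a change of 1.13 ± 0.22 (SE) or 2.19-fold (limma, adjusted p = 0.00659). PGA5 was thus ordered juvenile WT, juvenile RFH, adult RFH with no overlap at either step. Adult RFH lay 3.22 above juvenile WT, a pair of groups that differs in age and breed together and was not tested.

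SYNE1 read 4.67, 4.77, 5.26 and 5.12 in adult RFH arrays. All 4 exceeded the highest juvenile RFH array, by at least 0.44, and 2 of them lay inside the WT range. The mean rose from 3.88 ± 0.31 (SD, n = 3) to 4.95 ± 0.28 (SD, n = 4), by 1.08 ± 0.18 (SE) or 2.11-fold (limma, adjusted p = 0.00315). Adult RFH and juvenile WT arrays overlapped, with a difference of -0.17. The other 2 adult arrays still lay under every WT array.

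The dimmer PEA15 probe set read 8.50, 8.65, 8.73 and 9.01 in adult RFH arrays, above all juvenile RFH arrays and with 1 array inside the WT range. It rose by 0.58 ± 0.14 (SE) or 1.50-fold (limma, adjusted p = 0.0162). Leaving out juvenile RFH replicate 1 or 3 ended that call, at an adjusted p of 0.067 or 0.0624 by limma. The adult mean stayed 0.49 under WT. The brighter PEA15 probe set read 11.95, 12.11, 12.16 and 11.998, a change of 0.25 ± 0.09 (SE) that did not pass (adjusted p = 0.0791), although its adult and juvenile RFH arrays did not overlap.

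CLEC3B read 11.61, 10.93, 10.81 and 10.97 in adult RFH arrays, each above the juvenile RFH arrays and at least 1.22 above the WT arrays. The change from juvenile RFH was 0.44 ± 0.17 (SE) and did not pass (limma, adjusted p = 0.0986). Without adult RFH replicate 1, the array at 11.61, it was 0.26, and without adult RFH replicate 3 it was 0.53 and passed (adjusted p = 0.0485).

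AKAP11 read 3.88, 3.64, 4.31 and 4.24 in adult RFH arrays. These overlapped the juvenile RFH arrays, and the change of -0.28 ± 0.15 (SE) did not pass (limma, adjusted p = 0.249). All 7 RFH arrays lay under all 3 WT arrays, with the nearest adult array 1.14 below WT. The unnamed Ssc.2505.2.S1_at changed by -0.36 ± 0.14 (SE, adjusted p = 0.0992) between juvenile and adult RFH.

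The 5 genes therefore fell into different orders over the 3 groups. PGA5, CLEC3B and AKAP11 had every adult RFH array on the same side of WT as the juvenile RFH arrays. SYNE1 and the dimmer PEA15 probe set had adult arrays between juvenile RFH and WT or within the WT range. The adult and juvenile RFH arrays did not overlap in 5 of the 6 member probe sets (25.9% of all probe sets), nor adult RFH and juvenile WT arrays in 4 of 6 (39.5% of all). The juvenile arrays in both counts are those on which the genes were chosen, so nothing is read from either count.

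**Figure D5:**
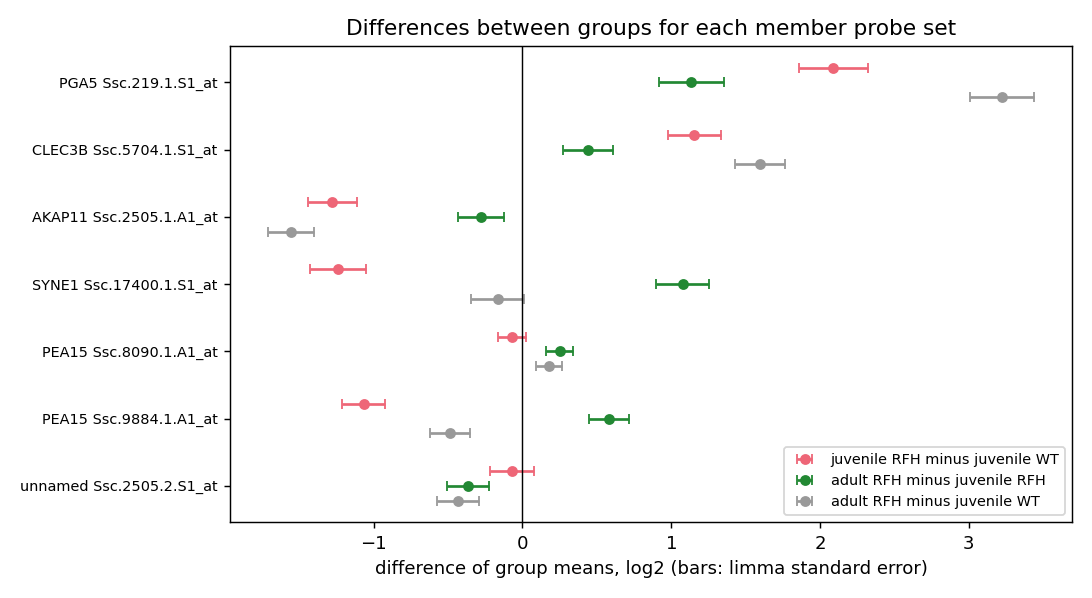
Difference between group means on the log2 scale (x axis) with the limma standard error as a bar, for each member probe set and the unnamed Ssc.2505.2.S1_at (y axis), in 3 pairs of groups. The red and green points of a probe set share the juvenile RFH arrays, which enter them with opposite sign; for PGA5 they lie at 2.09 and 1.13, and for the dimmer PEA15 probe set at -1.07 and 0.58.

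Genes related to the 5 were taken from 6 lists drawn up by function, with earlier results of these data known. Over the lists 51 distinct genes were measured. In juvenile RFH against WT none of them passed (limma, adjusted p under 0.05), beside 0.133% of the 6765 genes, and 7 had an unadjusted p under 0.05, beside 15.1% of the genes. In adult against juvenile RFH 11 rose and 1 fell, beside 11.4% of genes up and 7.85% down. With a single probe set per gene, the one with the highest mean, the median change over all genes was 0.07 in the first comparison and 0.02 in the second.

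Around PGA5, 4 other aspartic proteases were measured. CTSD, the lysosomal protease cathepsin D, rose in adult RFH from 10.69 ± 0.05 (SD, n = 3) to 12.25 ± 0.59 (SD, n = 4), by 1.56 ± 0.25 (SE, limma adjusted p = 0.0029). BACE1 and BACE2, the beta-secretases, and CYM, the calf-stomach protease chymosin, did not pass in either comparison. CYM, with the smallest p of the 4 between juvenile groups, differed by 0.21 (adjusted p = 0.436), or 0.13 without juvenile RFH replicate 2. The list's median difference was -0.07 between juvenile RFH and WT and 0.04 between adult and juvenile RFH.

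Of 7 measured genes of the stomach lining none passed in either comparison (limma; 1 had an unadjusted p under 0.05 between juvenile groups and 0 between RFH groups), with medians of 0.08 and 0.16. The acid pump subunits ATP4A and ATP4B and the gastrin gene GAST had means between 5.33 and 5.93 in all groups, under the array medians, and the gastric mucosal gene GKN1 lay between 3.42 and 3.46. TFF1, a trefoil peptide of mucous surfaces, averaged 7.26 ± 0.15 in WT and 8.20 ± 0.20 in juvenile RFH arrays (SD, n = 3 each), and 8.86 ± 0.75 in the adults (SD, n = 4). Its juvenile difference of 0.94 ± 0.35 (SE) had an adjusted p of 0.297 by limma and was 1.05 without juvenile RFH replicate 2. PGA5 sits in the RefSeq gene table of pig assembly Sscrofa11.1 beside genes for pregnancy-associated glycoproteins, relatives of pepsinogen, so a probe set could also bind transcripts of a relative. The 2 of them measured, PAG6 and PPAG3, differed between juvenile groups by 0.37 (adjusted p = 0.266) and -0.08 (adjusted p = 0.898), or 0.41 and -0.08 without juvenile RFH replicate 2.

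Around CLEC3B, 9 genes of the plasminogen system were measured. Of them 5 rose in adult RFH and none fell, beside 11.4% of all genes up and 7.85% down. Their median change was 0.37. PLAU, the urokinase activator, rose by 1.50 ± 0.21 (SE, limma adjusted p = 0.00125), SERPINE2, an inhibitor of plasminogen activators and thrombin, by 0.73 ± 0.12 (adjusted p = 0.00358) and PLAT, the tissue-type activator, by 1.10 ± 0.21 (adjusted p = 0.00606). Plasminogen itself (PLG) changed by 0.13 (adjusted p = 0.35) from a dim 5.52. Between juvenile RFH and WT none of the 9 passed, with a median of 0.04 (2 had an unadjusted p under 0.05), and SERPINE2 differed by -0.57 ± 0.13 (SE, adjusted p = 0.127), or -0.51 without juvenile RFH replicate 2.

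The list mean of 7 macrophage markers had the same group order as CLEC3B and PGA5. It lay between 9.90 and 9.98 in WT arrays, between 10.27 and 10.29 in juvenile RFH and between 10.69 and 11.22 in adult RFH arrays. Not every gene followed it: LAPTM5 averaged 10.78 in juvenile RFH against 11.03 in WT arrays, and MRC1 was lowest in the adults, at 10.43. Of the 7, 4 rose in adult RFH, beside 11.4% of all genes. None passed between the juvenile groups (limma), and 2 had an unadjusted p under 0.05. There C1QA, a chain of the complement starter C1q, had the smallest p (0.81 ± 0.19 SE, limma adjusted p = 0.139, and 0.84 without juvenile RFH replicate 2). The endothelial list mean had the same order, between 8.23 and 8.54 in WT, 8.60 and 8.89 in juvenile RFH and 8.69 and 9.61 in adult RFH arrays. This order was not particular to these cell types. The gastric list lay between 5.41 and 5.51 in WT, 5.58 and 5.73 in juvenile RFH and 5.62 and 6.11 in adult RFH arrays. The death effector domain and ERK list ran from 7.14 to 7.19, 7.30 to 7.39 and 7.39 to 7.83 in the same groups. The part of macrophages and endothelium in the CLEC3B and PGA5 values was not tested. Of 5 blood cell markers none passed between the juvenile groups (limma; 2 had an unadjusted p under 0.05). The haemoglobin chaperone AHSP and the haem synthesis gene ALAS2 were 1.65 and 1.61 higher in juvenile RFH (limma, adjusted p = 0.121 and 0.2), or 1.26 and 1.30 without juvenile RFH replicate 2. The globin gene HBB differed by -0.22, or -0.20 without that array. AHSP and ALAS2 fell in adult RFH, by 1.70 and 1.86 (limma, adjusted p = 0.0088 and 0.0183).

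For AKAP11, 15 further genes of A-kinase anchoring, protein kinase A and the phosphatase PP1 were measured. Between juvenile groups none passed, with a median of 0.01 and 1 at an unadjusted p under 0.05. PRKAR2A, a regulatory subunit that anchoring proteins bind, differed by -0.45 ± 0.14 (SE, limma adjusted p = 0.211; -0.35 without juvenile RFH replicate 2), and it rose by 0.66 ± 0.13 (adjusted p = 0.00653) in adult RFH. PPP1CA, a catalytic subunit gene of PP1, rose by 0.57 ± 0.16 (adjusted p = 0.0369) and the nuclear anchoring protein AKAP8 fell by 0.53 ± 0.09 (adjusted p = 0.00396). The other PP1 catalytic subunit genes, PPP1CB and PPP1CC, changed by -0.07 and 0.04 without passing (limma, adjusted p = 0.762 and 0.83). Of the 15, 2 rose and 1 fell in adult RFH, beside 11.4% of all genes up and 7.85% down. With any probe set of a gene counted, 5 of the 15 passed in place of 3, a count that cannot be lower. No share of all genes counted that way is given here, so nothing is read from it.

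For SYNE1, 5 further genes of the nuclear envelope were measured. LMNA, which encodes the lamins A and C under the nuclear membrane, rose in adult RFH by 1.22 ± 0.12 (SE, limma adjusted p = 0.000189) and differed by 0.39 ± 0.13 (adjusted p = 0.247; 0.34 without juvenile RFH replicate 2) between juvenile groups. SYNE2, the sister nesprin gene, averaged 8.82, 8.74 and 8.56 in WT, juvenile RFH and adult RFH arrays, with differences of -0.08 (adjusted p = 0.876; -0.01 without juvenile RFH replicate 2) and -0.19 (adjusted p = 0.349).

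For PEA15, 11 genes of death effector domain proteins, their receptors and the ERK pathway were measured. In adult RFH 2 of them rose and none fell, beside 11.4% of all genes up and 7.85% down. The 2 were RPS6KA3 and RPS6KA1, which encode RSK kinases that ERK activates. They rose by 0.68 ± 0.15 and 0.77 ± 0.22 (SE, limma adjusted p = 0.0133 and 0.035). The binding partners FADD and CASP8 changed by 0.04 and -0.02 and the ERK gene MAPK3 by 0.29, and none of these passed (adjusted p = 0.896, 0.957 and 0.0772). Between juvenile groups the median was 0.23 and none passed (2 had an unadjusted p under 0.05, beside 15.1% of all genes). BID, a link from death receptors to mitochondria, differed by 0.35 ± 0.12 (SE, adjusted p = 0.287), or 0.38 without juvenile RFH replicate 2.

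The genes that lie nearest in the RefSeq gene order were read to see whether neighbours moved with the members. For each of the 5 genes the 5 nearest measured protein-coding genes on either side were taken, 50 in all. Between juvenile RFH and WT 12 had an unadjusted p under 0.05, or 24% beside 15.1% of all genes, and none passed after adjustment (limma), where 0.133% of all genes did, so that a count of 0 in 50 says little. The differences ran from -0.58 to 0.88. In adult against juvenile RFH 14 passed, or 28% beside 19.3% of all genes. The extremes between juvenile groups were LACC1, 7 genes from AKAP11 (limma adjusted p = 0.137), and TSTD1, 21 genes from PEA15 (adjusted p = 0.155). They were -0.61 and 0.84 without juvenile RFH replicate 2. Around PGA5 the largest juvenile difference was that of TMEM138, a ciliary gene 5 genes away, at 0.77 (limma adjusted p = 0.135, and 0.72 without juvenile RFH replicate 2).

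The genes most like each member over the 10 arrays were found by the root mean square distance between profiles, each centred on its own mean. Each gene was read by its probe set nearest to the member, which need not be its brightest. For PGA5, which itself varied by 1.37 around its mean, the nearest were PERP (0.53), SPP1 (0.53) and OAS1 (0.57). SPP1, the gene of osteopontin, averaged 9.84, 11.38 and 12.66 in WT, juvenile RFH and adult RFH arrays, and OAS1, an interferon-induced antiviral enzyme, 5.68, 8.15 and 8.45. For CLEC3B, which varied by 0.70, the nearest were TSTD1 (0.18), CD300C (0.19) and C1QA (0.20), of which CD300C encodes a receptor of myeloid cells. For AKAP11, which varied by 0.69, they were SLC1A2, a glutamate transporter (0.27), an uncharacterised gene listed as LOC100518620 (0.28) and the water channel AQP3 (0.29). For SYNE1, which varied by 0.57, the nearest was the dimmer probe set of PEA15 (0.29), chosen like SYNE1 for a low juvenile RFH reading, then GAP43 (0.30) and LOC100739425 (0.30). For the dimmer PEA15 probe set, which varied by 0.44, they were the channel kinase TRPM7 (0.20), the calpain inhibitor CAST (0.20) and RSF1 (0.21). The CAST probe set picked for this likeness had the same dip, with group means of 6.71, 5.55 and 6.36. These distances describe 10 arrays of 3 groups and say nothing of shared function or control.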

How the data were processed

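The 10 arrays were read from the deposited table, which holds a log2 expression value for every probe set in every array. The unit was taken from the values (2.01 to 14.96), and the near-equal array medians are those of values scaled between arrays before deposit. The submitters' processing notes name R 2.15.2. How background was corrected and how probes were scaled and combined is not stated in the labels. Of 24123 probe sets 124 controls were left out. Gene names came from the platform annotation (10069 probe sets with 1 symbol, 198 with several, 13732 unnamed here), and all 5 member gene IDs were found in the RefSeq gene table under the same symbol.

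Group means were fitted to all 10 arrays and 23999 probe sets by limma version 3.58.1 under R 4.3.3 (functions lmFit, contrasts.fit and eBayes; 7 residual and 3.57 prior degrees of freedom), with two-sided p-values Benjamini-Hochberg adjusted over all probe sets. "Rose" and "fell" mean an adjusted p under 0.05. The fit was tested on simulated data. A gene outside the 5 was read by its brightest probe set. The genes most alike to a member were instead read by their probe set nearest to that member. The number of arrays limits the precision. Members and gene lists were chosen with earlier results of these data known. Named were all member probe sets, up to 3 called genes per list, direction and comparison with the smallest p (or else the gene with the smallest p), and the 3 genes most alike to each member. Neighbouring genes, further list members and the unnamed probe set were added after values were seen. Alternatives were quantile, median and cyclic loess scaling, leaving out dim probe sets, raising values below 4 to 4, fitting only the 2 groups compared, a trended robust prior, array weights, the replicate block, and each array left out in turn. Leaving out juvenile RFH replicate 2 for genes other than the members was chosen after seeing the data.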

Additional observations from a re-analysis of the deposited data

Results flagged for a closer look

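Adult RFH groups of 56 probe sets, of members, related and similar genes together, were examined for an array past Dixon's 95% limit for 4 values. There were 2 such groups, where chance gives about 1 in 20, and no member was among them. CLEC3B, at 11.61 in adult RFH replicate 1 against 10.81 to 10.97 in the others, stayed within that limit. PLAT, the tissue-type plasminogen activator, read 12.44 in adult RFH replicate 3 against 13.08 to 13.16 in the other adult arrays. PLN, the cardiac calcium pump regulator among the muscle markers, read 7.07 in adult RFH replicate 3 against 7.61 to 7.63.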

How the results depend on the processing

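All 6 member probe sets kept the direction of their juvenile difference in every alternative that gave them a value. Those chosen for that difference could hardly do otherwise, since their groups lay at least 0.70 apart, so this is no evidence about them. The brighter PEA15 probe set, at -0.07 ± 0.09 (SE) with overlapping groups, had no clear direction to keep. In adult against juvenile RFH 2 to 4 of the 6 were called, depending on the array left out; the other alternatives gave 2 (dim probe sets left out, which removes AKAP11 and SYNE1) to 4 (values below 4 raised to 4, where the brighter PEA15 probe set passed at an adjusted p of 0.04). The background counts moved more. For juvenile RFH against WT, 28 probe sets became 6 without dim probe sets, 10 with low values raised to 4, 872 with only the juvenile arrays fitted, 1171 with array weights and 17 with the replicate block. Leaving out single arrays gave 2 to 71: 71 and 50 without adult RFH replicates 2 and 3, 12 and 2 without juvenile RFH replicates 2 and 3, and 6, 3 and 15 without juvenile WT replicates 1, 2 and 3. For adult against juvenile RFH, 4025 became 2308 with only the RFH arrays, and 2243 to 4965 with single arrays left out (2243 and 2280 without juvenile RFH replicates 1 and 3). Dropping an array leaves fewer samples, and the counts moved both up and down when single arrays were left out. The cause of these shifts was not tested. Deviations of same-numbered arrays correlated between -0.16 and 0.19, and those of arrays with different numbers between -0.20 and 0.19. With so few arrays these ranges cannot show or exclude a pairing by replicate number. With the replicate block the same 3 member probe sets were still called. Low signal limits AKAP11, SYNE1 and, in WT, PGA5.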
